A study of Mus musculus with 6 samples.

Results

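The genes described lie at 2 loci of the mouse genome: Foxp3 with its neighbours Ccdc22 and Ppp1r3f on the X chromosome, and Cxcl16 with its neighbour Zmynd15 on chromosome 11. They were taken by symbol, and all 5 are among the 48377 symbols of the count table. At each locus the exons of an immune gene lie over those of a neighbour on the opposite DNA strand. Earlier results on these same libraries were known when the genes were chosen. Zmynd15 was selected on its p-value, the 6th smallest among genes higher with vemurafenib, and Foxp3 on its counts, which were most of those of an earlier list of T cell genes. Those values are therefore given as a description.

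Skin RNA came from db/db mice, which lack a working leptin receptor, become obese and diabetic and close wounds slowly. Both groups were db/db, and they were compared after 16 days on vehicle (named DMSO in the sample titles) or on vemurafenib (PLX4032), an inhibitor of mutant BRAF kinase that the labels give at 1 uM, with 3 libraries in each group. The labels give no age or sex and do not say that libraries came from separate animals, so the spread between libraries may be technical in part. The 6 poly(A) libraries held between 14189 and 78434 counted reads, and 477 genes passed the filter on low counts and entered the test. CPM are counts per 1000000 counted reads after TMM scaling. All 10 keratinocyte genes and all 8 fibroblast genes of the marker lists had counts, led by Dsp with 220 and by Col1a1 with 2950. Collagen genes held most of the fibroblast counts, while Pdgfra had 12, Dcn 4 and Lum 3. The keratinocyte genes Trp63 and Itga6 had 18 and 9. Markers of the labelled tissue were thus present, some of them thinly counted.

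Foxp3 is the transcription factor that defines regulatory T cells, which in skin restrain inflammation and take part in wound repair and in the hair follicle cycle. Ccdc22 is a subunit of an endosomal complex with COMMD proteins that returns membrane proteins to the cell surface, and Ppp1r3f is a subunit that directs protein phosphatase 1 to glycogen. Cxcl16 is a chemokine made as a membrane protein by macrophages, dendritic cells and keratinocytes, shed by Adam10 and Adam17, and bound by the receptor Cxcr6 on T cells. Zmynd15 is a zinc-finger repressor known from spermatids, where the mouse gene is needed for male fertility.

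Where exons overlap on opposite strands, the name a read is counted under depends on the strand setting used in counting. The same bases are given here as read from either strand. At the head-to-head overlap on chromosome 11 (mm10, GENCODE M21), the stretch 11:70459433-70459462 holds the start codon of Cxcl16 and lies in the first exon of Zmynd15. The start codon of Cxcl16, and the bases opposite it, are in capitals.
Cxcl16, minus strand: ccgcagaagccggagATGaggcggggcttt
Zmynd15, plus strand: aaagccccgcctCATctccggcttctgcgg
At the tail-to-tail overlap on the X chromosome, the stretch X:7594041-7594070 holds the stop codon of Ccdc22 and lies in the 3′ UTR of Foxp3. The stop codon and the bases opposite it are in capitals.
Ccdc22, minus strand: gggtccgagaggccTAGagccctgatggat
Foxp3, plus strand: atccatcagggctCTAggcctctcggaccc
Per the labels the libraries are stranded, but the strand setting used in counting is not given in the sources used here. Whether a read counted from such a stretch came from the named gene or from its partner cannot be told from the table.

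Cxcl16 (11:70453983-70459984, minus strand) and Zmynd15 (11:70459433-70466202, plus strand) share 1 stretch of 552 bp of exon. It makes up 18.3% of the merged exons of Cxcl16 and 12.5% of those of Zmynd15. It is non-coding in Zmynd15 and holds 15 coding bases of Cxcl16. No gene shares exon with either on its own strand. Foxp3 (X:7573644-7595245, plus strand) meets its neighbours at both ends. Its upstream exon shares 266 bp with coding sequence of Ppp1r3f (X:7557296-7574283, minus strand), and its last exon shares 590 bp, in 4 stretches, with Ccdc22 (X:7593809-7605517, minus strand), of which 342 bp code for Ccdc22. Together they are 856 bp, or 18.7% of the merged exons of Foxp3, all of them outside the coding sequence of Foxp3.

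The Foxp3 locus also holds genes that share exon on the same strand. Flicr (X:7573600-7581027, plus strand), a long non-coding RNA known to limit Foxp3 expression in cis in regulatory T cells, shares 853 bp with Foxp3. Gm36995 (X:7558602-7605381, minus strand), an annotated processed transcript, shares 2957 bp with Ccdc22, which is 86.3% of the exon of Ccdc22 and leaves 470 bp of its own. It shares 2415 bp, or 46.9%, with Ppp1r3f. HTSeq by default gives a read to no gene when it fits exons of several genes; the mode used here is not given in the sources used here.

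**Figure D1:**
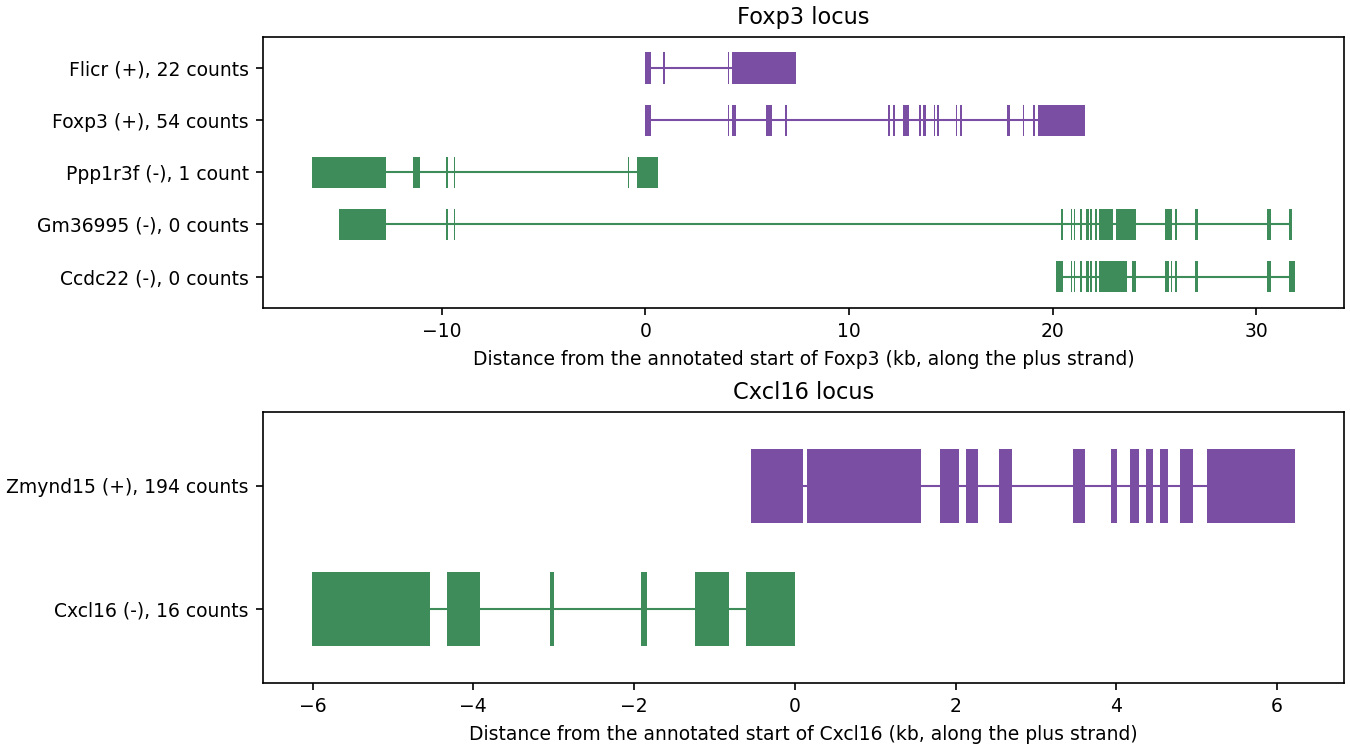
Merged exons (boxes) of the genes at the Foxp3 and Cxcl16 loci, plus strand in purple and minus strand in green, against distance in kb from the annotated start of Foxp3 or Cxcl16. Counts over the 6 libraries stand beside each name: at both loci most counts lie under the plus-strand genes.

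Counts at both loci were concentrated under the plus-strand gene. Zmynd15 had 194 counts and Cxcl16 16. Foxp3 had 54 counts in the 6 libraries, Flicr 22, Ppp1r3f 1, and Ccdc22 and Gm36995 had 0. At the Foxp3 locus that is 76 counts under genes annotated on the plus strand and 1 under genes on the minus strand. The strand of the reads themselves is not known. The floor for a gene with no count, 3 counts over the library total, lies between 38.2 and 211 CPM in the single libraries, so the absence of Ccdc22 counts bounds only what was counted under that name.

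Per kb of merged exon, Zmynd15 stood highest, at 173 ± 94.3 CPM per kb (SD, n = 6 libraries of both groups). Foxp3 had 51.9 ± 20.8 CPM per kb, Flicr 33.7 ± 25.4, Cxcl16 18.9 ± 15.3 and Ppp1r3f 0.862 ± 2.11 CPM per kb. Zmynd15 lay above Foxp3 in 5 of 6 libraries and above Cxcl16 in 6 of 6, and Foxp3 lay above Cxcl16 in 6 of 6. Foxp3 lay above Flicr in 4 of 6 and Flicr above Cxcl16 in 5 of 6, and the ranges of these neighbours in the order overlapped.

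Zmynd15 is the member counted deeply enough for edgeR. Its level was 655, 630 and 216 CPM in vehicle 1, 2 and 3, from 16, 9 and 10 counts. It was 1336, 563 and 1173 CPM in vemurafenib 1, 2 and 3, from 103, 12 and 44 counts. Vemurafenib 1 and 3 lay above every vehicle library, vemurafenib 2 lay below vehicle 1 and 2, and the groups overlapped. The means were 500.4 ± 246 CPM with vehicle and 1024 ± 407 CPM with vemurafenib (SD, n = 3). The log2 fold change was 1.17 ± 0.49 (SE), with an approximate 95% interval of 0.20 to 2.14. Because Zmynd15 was selected on its p-value for this contrast, both values are a description. Its p was the 12th smallest of 477 tested genes, and the Benjamini-Hochberg adjusted p from edgeR's quasi-likelihood test was 0.874. Without vehicle 3 the log2 fold change was 0.74.

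None of the 5 members was called. The call rule, an adjusted p under 0.05 over all tested genes, called 0% of the 477 tested genes. Only 1 member, Zmynd15, was among them. The other members had too few counts to enter the test and could not be called by it. With edgeR 23 genes had an unadjusted p under 0.05, with DESeq2 14 and with limma-voom 40, and neither of these called a gene. The groups did not overlap for 8.81% of the tested genes, and they overlapped for all 4 members with a count. Of these members Foxp3, Cxcl16 and Ppp1r3f lie outside the tested set, so that share is no background for them.

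Beside Zmynd15, the 10 keratinocyte genes summed to 3192, 4620 and 1233 CPM in vehicle 1, 2 and 3, and vehicle 3 was also the lowest library for Zmynd15. They summed to 3605, 4789 and 6400 CPM in vemurafenib 1, 2 and 3. Vemurafenib 2 stood high for the keratinocyte genes and low for Zmynd15. Of the 5 tested keratinocyte genes none was called; their median log2 fold change was 0.78, next to 0.02 over all 477 tested genes, and ran from -0.12 for Krt1 and -0.11 for Krt10 to 2.02 for Krt17. The 8 fibroblast genes went the other way in some of these libraries, with their highest sum, 60407 CPM, in vehicle 3 and their lowest, 17493 CPM, in vemurafenib 3. The 4 of them that were tested had a median log2 fold change of -0.65, and none was called. The part of either list in the difference of Zmynd15 was not tested. Of the 3 tested genes whose log2 CPM followed Zmynd15 most closely over the 6 libraries, the keratin gene Krt17, active at wound margins and in hair follicles, had Pearson r = 0.92, Gm20033 had 0.94 and 1810049J17Rik 0.92. These were the top of 476 genes compared, with a median r of 0.00, and the libraries share their depth across all genes.

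Cxcl16 was at the edge of detection. It had 1 count in each of vehicle 1, 2 and 3, which is 40.9, 70.0 and 21.6 CPM, and 10, 0 and 3 counts in vemurafenib 1, 2 and 3, which is 130, 0 and 80.0 CPM. Vemurafenib 2 was the 1 library with no Cxcl16 count. It was the lowest vemurafenib library for Zmynd15 and also the shallowest of its group, with 20796 counted reads. The groups overlapped. The means were 44.2 ± 24.3 and 69.9 ± 65.4 CPM (SD, n = 3). The difference of the log2 CPM means (prior count 2) was 0.19 (exact permutation test, two-sided, p = 0.7, where 0.1 is the smallest p that 3 against 3 libraries allow). In an edgeR fit of all 4697 genes with at least 10 counts, Cxcl16 had a log2 fold change of 1.21 ± 1.02 (SE), with an interval of -0.79 to 3.21. Without vemurafenib 1, which held 10 of the 16 counts, the difference of the log2 means was -0.12.

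Zmynd15 took most of the counts of its locus in every library. Its share was 94.1% (16 of 17 counts), 90.0% (9 of 10) and 90.9% (10 of 11) in vehicle 1, 2 and 3. It was 91.2% (103 of 113), 100% (12 of 12) and 93.6% (44 of 47) in vemurafenib 1, 2 and 3. Over all libraries it was 92.4% (194 of 210, 95% Clopper-Pearson interval 87.9% to 95.6%, counting error only). The group means were 91.7 ± 2.16% and 94.9 ± 4.57% (SD, n = 3), and no test was made because Zmynd15 was chosen with its difference known. No library fell below 90.0%, while the counts of the locus ranged from 10 to 113.

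**Figure D2:**
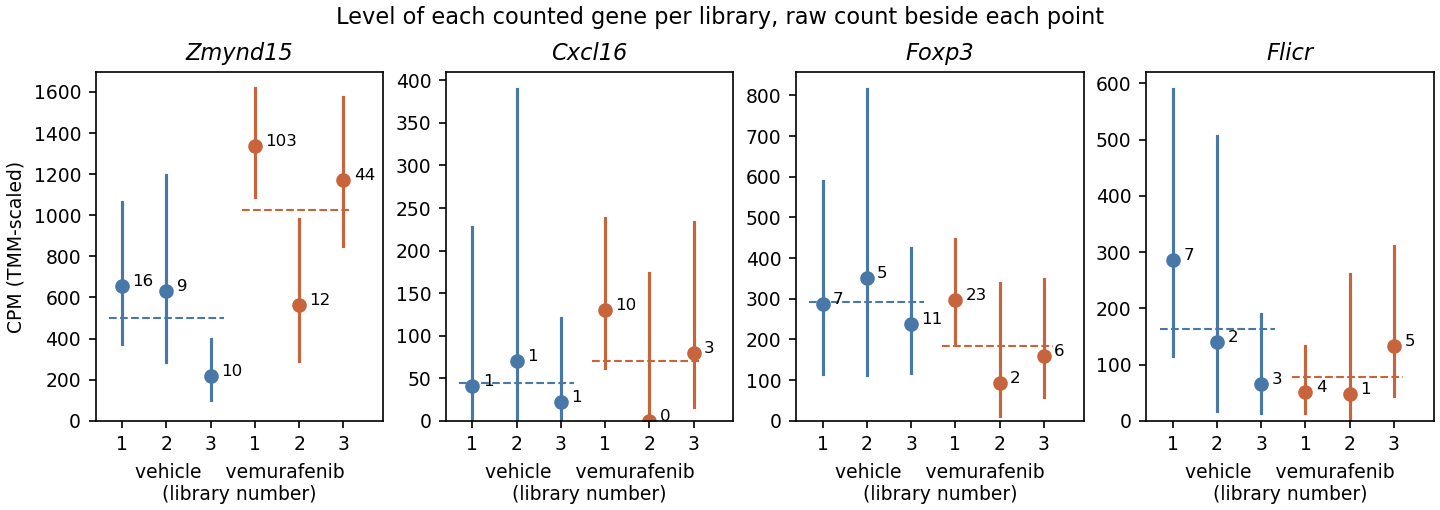
Level in CPM (linear axes, each from 0) of Zmynd15, Cxcl16, Foxp3 and Flicr in each library, blue for vehicle and orange for vemurafenib. Points carry their raw count, vertical lines are 95% Poisson intervals of the count and dashed lines are group means. The groups overlap in all 4 panels, and vehicle 3 is lowest for Zmynd15 at 216 CPM.

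Foxp3 was counted in all 6 libraries. It had 7, 5 and 11 counts in vehicle 1, 2 and 3, which is 286, 350.0 and 238 CPM. It had 23, 2 and 6 counts in vemurafenib 1, 2 and 3, which is 298, 93.9 and 160.0 CPM. Vemurafenib 2 and 3 lay below every vehicle library, vemurafenib 1 lay between vehicle 1 and vehicle 2, and the groups overlapped. The means were 291 ± 56.2 CPM with vehicle and 184 ± 104 CPM with vemurafenib (SD, n = 3). The difference of the log2 CPM means was -0.62 (exact permutation test, two-sided, p = 0.3). The edgeR fit of genes with at least 10 counts, which called 0.0639% of 4697 genes and none of the members, gave a log2 fold change of -0.41 ± 0.56 (SE), interval -1.51 to 0.69. With all genes of at least 1 count in the fit, an alternative added after seeing the data, the log2 fold change was -0.18, where the median of the 477 tested genes moved from 0.02 to 0.23. Without vemurafenib 2, which held 2 counts, the difference of the log2 means was -0.34. No difference in Foxp3 was called, and the part of counting error in it was not tested. Where exons overlap, the gene that the reads came from is not known. In bulk skin, fewer cells of a type and less RNA per cell cannot be told apart either.

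Flicr, on the same strand as Foxp3, had 7, 2 and 3 counts in the vehicle libraries, in the order of their numbers, and 4, 1 and 5 in the vemurafenib libraries. That is 286, 140.0 and 64.9 CPM against 51.9, 46.9 and 133 CPM, with overlapping groups. The difference of its log2 CPM means was -0.66 (exact permutation test, two-sided, p = 0.2). Vemurafenib 2 was the lowest library for both Foxp3 and Flicr, while the highest was vehicle 2 for Foxp3 and vehicle 1 for Flicr. Ppp1r3f had its 1 count in vemurafenib 3. Foxp3 therefore held 100% of the counts of Foxp3, Ccdc22 and Ppp1r3f in 5 libraries and 85.7% (6 of 7) in vemurafenib 3. Over all libraries the share was 98.2% (54 of 55, Clopper-Pearson 90.3% to 99.95%), and the group means were 100% with vehicle and 95.2% with vemurafenib. That difference is the 1 count of Ppp1r3f, and with 5 equal shares no permutation of the libraries can test it.

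Opposite-strand pairs in general were split unevenly, and the Foxp3 pairs lay near the uneven end. Of 1297 pairs of protein-coding genes with at least 50 bp of shared exon on opposite strands, 693 had at least 20 counts in the 6 libraries. In these the more counted gene held a median of 79.2% of the pair's counts, with quartiles of 66.2% and 90.5%. The 92.4% of Zmynd15 was reached or passed by 140 pairs (20.2%). The pair of Foxp3 and Ccdc22, with 54 counts against 0, was one of 33 pairs (4.76%) with no count under the second gene. The pair of Zmynd15 and Cxcl16 was among the deeper ones: 28 pairs, itself included, had at least its 210 counts, against a median of 48.0. Among 132 pairs with a total within 2-fold of that, the median share was 81.8% and 33 were at least as uneven. Among 447 pairs within 2-fold of the depth of Foxp3 and Ccdc22, 17 (3.80%) had no count under the second gene. Foxp3 was chosen for its counts, so the place of its pairs among the others is a description. Ccdc22 shares 86.3% and Ppp1r3f 46.9% of its exon with Gm36995 on the same strand. Reads there may have been given to no gene, and the pairs compared were not matched for this.

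**Figure D3:**
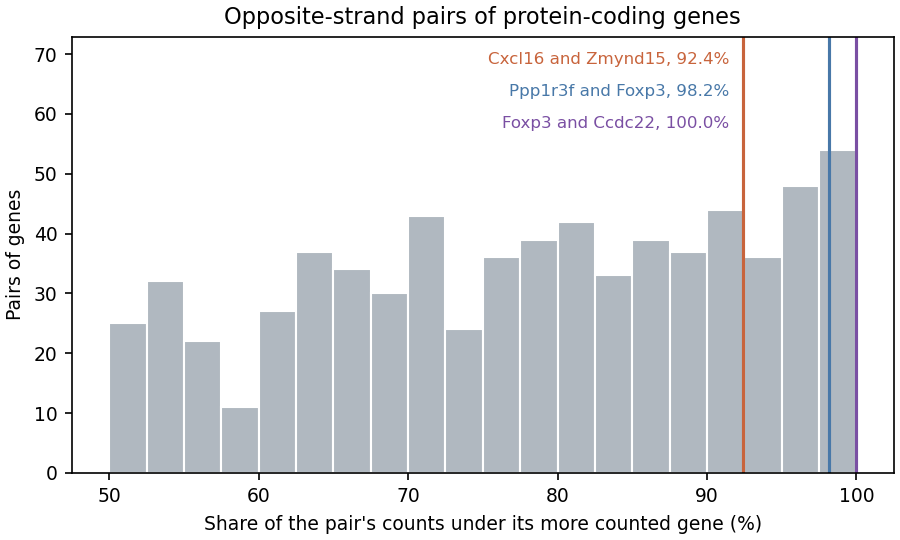
Number of opposite-strand pairs of protein-coding genes (y axis) by the share of the pair's counts that its more counted gene held (x axis, in percent), for the 693 pairs with at least 20 counts. Vertical lines mark Cxcl16 and Zmynd15 at 92.4%, Ppp1r3f and Foxp3 at 98.2% and Foxp3 and Ccdc22 at 100%.

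Most cell markers that go with Foxp3 had few or no counts, as did most genes of the table: the median was 0.5 counts over the T cell genes and 1 over the regulatory T cell genes, next to 1 over all protein-coding genes. Of 20 T cell genes 10 had a count, with 64 counts in all, and Cd247, the zeta chain of the T cell receptor complex, held 39 of them and Thy1 10. Cd3e, Cd3d, Trac, Trdc and Tcrg-C1 had 0 counts. Cd3g, Lck, Lat and Trbc2 had 1 each, Trbc1, Cd8a and Cd5 had 2 each, and Cd4 had 5. Summed, the list lay at 210 to 368 CPM with vehicle and 282 to 320 CPM with vemurafenib. Of 16 regulatory T cell genes 9 had a count. Tnfrsf18, the receptor GITR, had 63 and Foxp3 54 of the 146 counts. Il2ra and Icos had 0 and Ctla4 had 2. The list summed to 614 to 770 CPM with vehicle and 610 to 648 CPM with vemurafenib. Its 1 tested member, Tnfrsf18, had a log2 fold change of 0.02, the same as the median of 0.02 over all 477 tested genes, and was not called.

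The T cell and regulatory T cell genes with most counts also had exon opposite another gene. Cd247 lies over Pou2f1, which had 8 counts, and Tnfrsf18 over Gm16008, which had 10. Genes whose exons overlap another gene on the opposite strand by 50 bp or more were 4 of the 16 regulatory T cell genes and held 131 of their 146 counts (89.7%). Among the T cell genes they were 3 of 20 and held 39 of 64 counts (60.9%), and among the macrophage and dendritic cell genes 1 of 16, Csf1r, held 67 of 203 counts (33.0%). Over all 21634 protein-coding genes they were 20.6% of the genes and held 46.2% of the counts, with a median of 5 counts against 1 over all. Foxp3 was itself chosen for its counts, so its part in the first of these shares is a description.

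**Figure D4:**
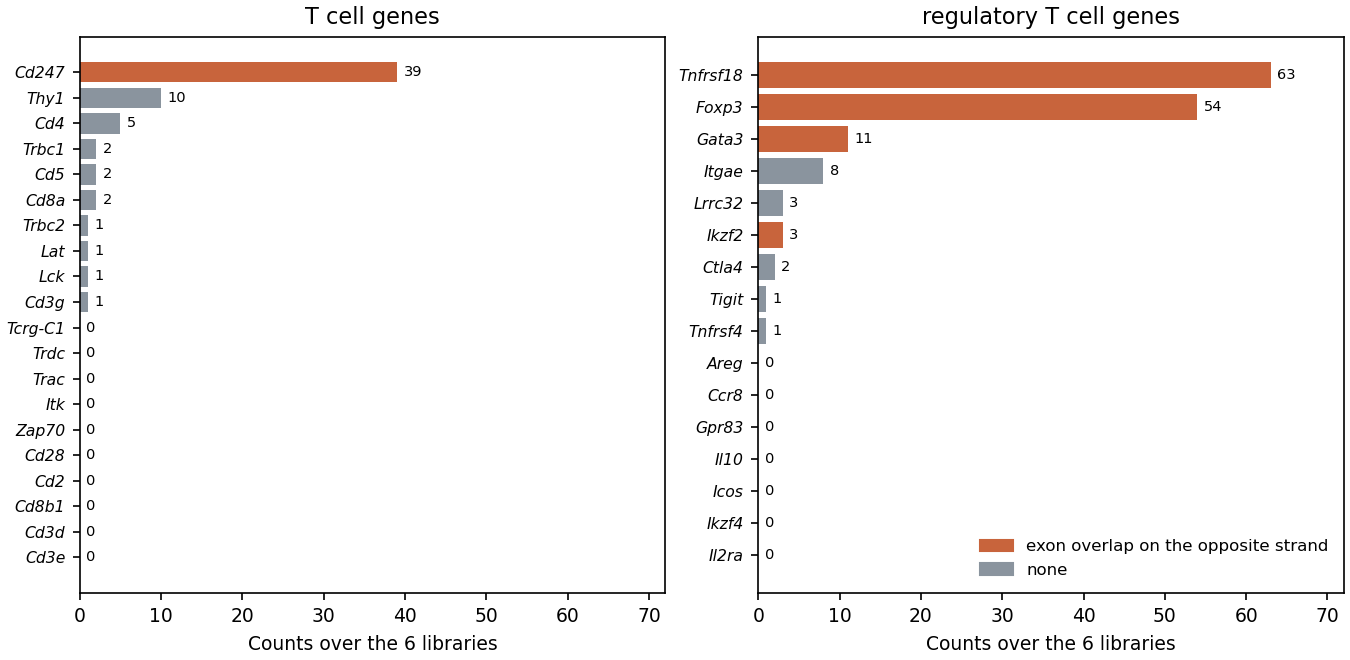
Counts over the 6 libraries (x axis) of each gene of the T cell and regulatory T cell lists, orange where 50 bp or more of exon lie opposite another gene and grey where not. Cd247 with 39, Tnfrsf18 with 63 and Foxp3 with 54 stand apart, and the T cell genes Cd3e, Cd3d and Trac are at 0.

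Genes that act with Cxcl16 were counted too thinly to test. The receptor Cxcr6 had 9 counts and the sheddases Adam10 and Adam17 had 5 and 10. Macrophage and dendritic cell genes had 203 counts over 14 of 16 members, led by Csf1r, the receptor of a macrophage growth factor, with 67 and the scavenger receptor Cd163 with 36, and Adgre1 and Cd207 had 0. They summed to 757 to 818 CPM with vehicle and 693 to 1179.9 CPM with vemurafenib, and no member was tested. The spermatid genes were near 0 apart from Zmynd15: 8 of 12 had no count, among them Tnp1 and Akap4, and Tssk6 had 14 counts, 17 being the sum without Zmynd15.

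The partners of the remaining members were also sparse. Of 16 genes of the Ccdc22 complex, 13 were found in the table under the symbol used and 6 had a count, 24 counts in all, with Commd1 at 8 and Ccdc93 at 5. Of 15 glycogen genes 9 had a count, led by Pygb, the brain form of glycogen phosphorylase, with 29 and by Ppp1ca, the phosphatase catalytic subunit, with 19. The other glycogen-targeting subunits had at most 3 counts. No gene of either list was tested.

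Genes within 50 kb of the loci had at most 14 counts, apart from Flicr. Around Foxp3, the calcium channel gene Cacna1f had 2 counts, the synaptic vesicle gene Syp 2 and Gm14703 4, and the pseudogenes Gm14381, Gm14395 and Gm14394 and the snoRNA Gm23082 had 0. Around Cxcl16, Arrb2, an arrestin that regulates receptor signalling, had 14 counts, Med11, a Mediator subunit that ends 255 bp from Cxcl16, had 7 and Pelp1 2. Tm4sf5, Vmo1, Mir7115 and the pseudogenes Gm12313 and Gm12314 had 0. Per kb of merged exon Med11 had 6.69 counts and Arrb2 4.92 over the 6 libraries, next to 5.30 for Cxcl16 and 44.0 for Zmynd15. The genes whose log2 CPM followed Foxp3 most closely over the 6 libraries were Gm12758 (Pearson r = 0.97), Ankrd11 (0.97) and Htra2 (0.96), of 477 compared with a median r of -0.02. All 3 were lowest in vemurafenib 2, at 329, 329 and 93.9 CPM, as Foxp3 was, with 2 counts there. They were picked for following Foxp3 in these same libraries, so a shared lowest library follows in part from that choice.

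**Figure D5:**
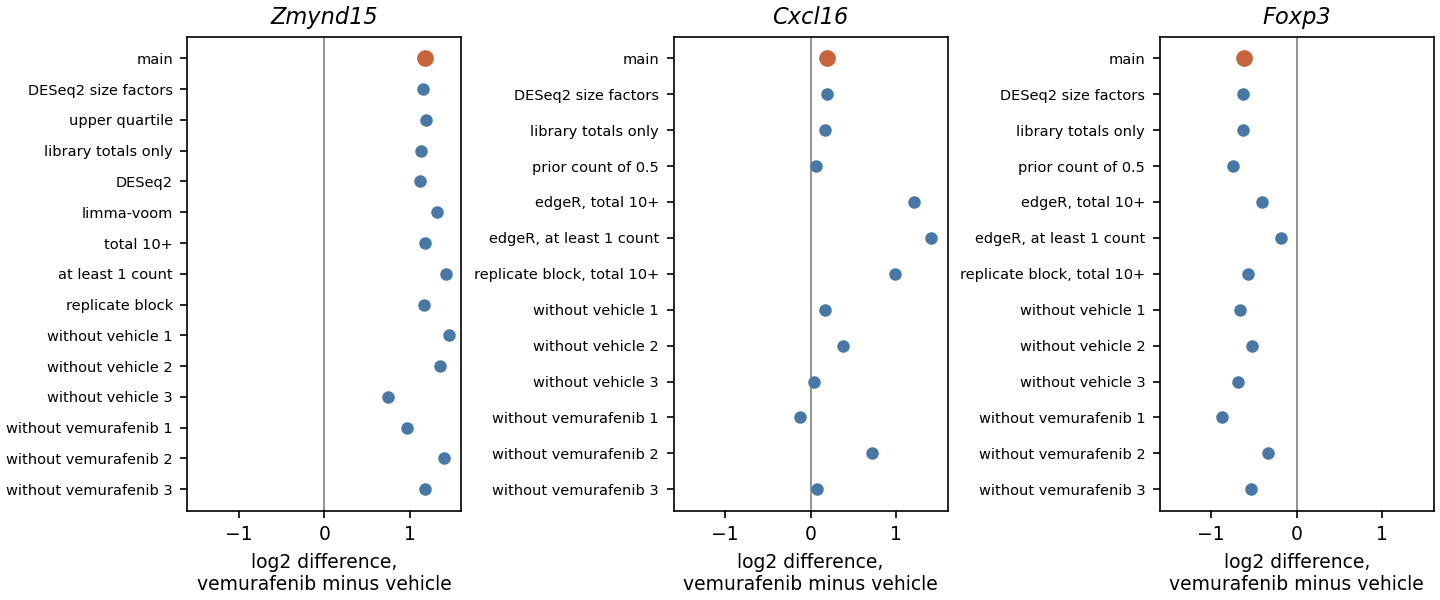
Log2 difference between vemurafenib and vehicle (x axis) for Zmynd15, Cxcl16 and Foxp3 as reported (orange) and under each alternative (blue). Zmynd15 stays above 0 (0.74 to 1.45) and Foxp3 below 0 (-0.87 to -0.18) under each one shown, and Cxcl16 crosses 0 without vemurafenib 1 (-0.12). No value passed a test. Zmynd15 was selected on its p-value for this contrast in these same libraries, so its sign here is a description.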

How the data were processed

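The deposited file gives read counts by gene symbol as whole numbers, and the submitters' processing notes name HISAT2, HTSeq and mm10. Neither versions, annotation nor strand setting is given in the sources used here. In it 1 further column, which matches no sample, was left out. Libraries were grouped by their titles.

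Counts were analysed as deposited with edgeR 4.0.16 in R 4.3.3: filterByExpr (smallest count 10, smallest total 15), library sizes from all counts, TMM scaling, and the quasi-likelihood test with robust dispersion, group only, with Benjamini-Hochberg adjustment over 477 genes. Standard errors were obtained as the absolute log2 fold change divided by the root of the F statistic. Members below the filter were compared on log2 CPM (prior count 2) by exact permutation. DESeq2 1.42.0 and limma-voom (limma 3.58.1) were alternatives. The fit was tried on simulated data for vemurafenib against vehicle (3 runs of 477 to 535 tested genes, dispersion 0.1, 200 genes changed). It called 96.7% to 98.9% of the tested 4-fold changes, and 2.23% to 2.78% of its calls were false. The changed genes were drawn only from deeply counted genes. These rates therefore do not cover genes counted as thinly as Foxp3 and Cxcl16, or changes smaller than 4-fold. Real genes need not vary as the simulated ones did. Poisson and Clopper-Pearson intervals and floors cover counting error only. Intervals of log2 fold changes rest on the standard errors of the fit, which include the spread between libraries.

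GENCODE M21, also on mm10, gave the gene models, whose exons were merged per gene; Python 3.11.15 and pandas 2.3.3 were used. Named genes were the members, genes within 50 kb, the leading genes of each list, defining markers and partners, and the 3 most alike genes. Members and lists were chosen with earlier results of these data known. The split of lists by opposite-strand overlap and the comparison with all genes for it were added after seeing the data.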

Additional observations from a re-analysis of the deposited data

How the results depend on the processing

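The count of 0 changed genes held under the other scalings, DESeq2 and limma-voom. It was 3 with a total of at least 10 counts and 3 with at least 1 count, and 0 to 2 when 1 library was left out, the 2 without vemurafenib 1; no member was among the calls. The first 2 settings test more genes, and the cause was not tested further. Zmynd15 had log2 fold changes of 1.12 to 1.42 under other scalings, tools and filters and 0.74 to 1.45 when 1 library was left out, with adjusted p from 0.447 to 0.997. Foxp3 ranged from -0.75 to -0.18 and, leaving out 1 library, from -0.87 to -0.34. Cxcl16 ranged from 0.06 to 1.41 and, leaving out 1 library, from -0.12 to 0.72. The difference in the Foxp3 share of its locus, -4.76 percentage points, rests on 1 count of Ppp1r3f: it was -4.30 per kb, and -7.14 to 0 when 1 library was left out. That of the Zmynd15 share was 3.25 points, 4.53 per kb, and 0.708 to 5.13.

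Equal replicate numbers showed no sign of pairing: their deviations from the group means correlated at 0.04, -0.08 and -0.33 for numbers 1, 2 and 3. Unequal numbers gave -0.25 to 0.32. With so few libraries in each group this check cannot exclude pairing. With the replicate number as a block 0 genes were called, and the log2 fold changes were 1.16 for Zmynd15, -0.57 for Foxp3 and 0.98 for Cxcl16. Each library held at most 23 Foxp3 and 10 Cxcl16 counts, so differences within the intervals given were not detectable at this depth.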

Other observations

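Some partners of list genes held more counts than the list gene they overlap. Ruvbl2, an ATPase of chromatin remodelling complexes, had 44 counts where Gys1, the muscle glycogen synthase opposite it, had 5. Rad9a, a subunit of a DNA damage checkpoint clamp, had 50 where Ppp1ca opposite it had 19. The same was seen for skin markers. Gm11940 had 357 counts where Krt10 had 96, and Gm44323 127 where Krt5 had 47. Gm9913 had 177 where Fbn1 had 61, and Gm42802 37 where Pdgfra had 12. In contrast Csf1r had 67 counts and Hmgxb3 opposite it 16. Dsp had 220 and Gm10129 opposite it 171, and Krt6a had 28 and Gm44342 5. The counts are not divided by exon length, so they do not compare levels between genes. These genes were named after their values were seen, and they are examples from the pairs of the lists.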
